A study of Rattus norvegicus with 46 samples.

Results

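Abdominal skin of rats given the drug RTA-408 and a fractionated course of radiation was compared, 7 days after the last treatment day, with skin of rats sampled before any treatment. The comparison rested on 9 of the 46 arrays of the series, namely the 3 arrays whose titles give day 7, radiation, RTA-408 and DMSO and the 6 arrays whose titles give day -10 and no treatment, and on all 23188 features that are not controls. All rats were Sprague-Dawley, the labels state neither age nor sex, and each sample was a 5 mm punch of abdominal skin hybridised to a rat Clariom S array, which reports 1 signal per transcript. Treated rats received electrons from a 6 MeV beam, 40 Gy in 4 fractions of 10 Gy given every other day over 8 days, and RTA-408 in DMSO was injected on days -7, -5, -3 and 0. The day 7 arrays came from rats 324, 323 and 303 (replicates 1, 2 and 3). The baseline arrays came from rats 324, 323, 322, 321, 319 and 318 (replicates 1 to 6), so 2 of the 3 treated rats had a baseline array of their own. Against baseline, radiation, drug, vehicle, repeated biopsy and the passage of time all differ, and 2 further day 7 groups were used to set those values in context. The first was unirradiated skin injected with DMSO (rats 319 and 317), and the second was irradiated skin injected with DMSO (rats 322, 321 and 320). The labels name each array by 1 rat. The p-values rest on 1 spread between arrays within groups, pooled over all 46 arrays in 16 groups. The 9 rats recur across these groups, and the main fit counts arrays of the same rat as separate.

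RTA-408 is a synthetic triterpenoid that binds KEAP1 and so releases the transcription factor NRF2, which switches on genes for glutathione synthesis, quinone reduction and drug conjugation. Radiation breaks DNA and activates p53, and in skin it depletes dividing cells of the epidermis and hair follicle before an inflammatory reaction sets in, with alarmins from keratinocytes, chemokines, and the entry of neutrophils and macrophages. Hair follicles pass through growth and rest phases, and the keratins of the hair shaft are made only while a follicle grows.

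Signals are deposited log2 values, with medians per array of 6.84 to 6.95. Each array holds 1153 negative control features, whose median ran from 5.78 to 6.52. Where the mean signal of a gene in a group was at or below the mean of its arrays' negative control medians, the group has only a bound. Each of its arrays is then counted at its own signal or its own negative control median, whichever is higher, and the difference is given as "at least". The deposited scale reaches 19.66 to 19.93, wider than a 16-bit scanner gives, so differences are given in log2 units and not as folds. By their spike-in controls the 46 arrays fell into 3 sets. All 6 baseline arrays were in set I, while day 7 replicate 2 was in set II and replicates 1 and 3 in set III. No set held both groups, so set and day could not be separated within a set. A fit with the set as a term borrowed the set effect from the other days, and its values stand beside the results where they change a call. The unirradiated day 7 arrays were both in set III. Baseline replicate 2 had a mean over 21 skeletal muscle genes of 6.11, against 15.50 to 16.49 on the other baseline arrays. Baseline replicate 4 had a mean over the 19 genes of the hair shaft list of 11.87, against 14.72 to 15.51. The labelled tissue had its markers on every array, with signals for Krt14, the keratin of basal epidermis, of at least 15.88.

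At day 7, 3661 of 23188 features (15.8%) passed the test against baseline at an adjusted p under 0.05 (limma, Benjamini-Hochberg), 2115 higher (9.12%) and 1546 lower (6.67%). The groups did not overlap for 3003 of them, 1814 higher and 1189 lower, and this held for 17.9% of all features. On the measured values the difference reached 2 log2 units for 501 higher and 318 lower features, and 4 units for 81 higher and 145 lower ones. Arrays of the day 7 group correlated with each other at r between 0.984 and 0.989 across features, those of the baseline at 0.935 to 0.988, and pairs across the groups at 0.907 to 0.960. With the spike-in set as a term, 763 features (3.29%) passed, and 741 of them were among the 3661 and moved the same way. With the rat as a fixed block 2524 passed (10.9%), 1388 higher (5.99%) and 1136 lower (4.9%). Against unirradiated vehicle skin of day 7, 1189 features (5.13%) passed, 826 higher (3.56%) and 363 lower (1.57%). The 1189 became 639 without day 7 replicate 1, 565 without replicate 3, 562 without unirradiated replicate 1 and 109 without unirradiated replicate 2. With the rat as a fixed block 3 features passed in this comparison, whose groups share no rat, and of the 89 genes named here that passed in it 2 kept the call, Gpr15lg and Abcb1b. Of the features that passed against baseline 848 also passed in the same direction against unirradiated skin, and 337 higher and 59 lower ones passed in the same direction both there and with the set as a term. Unirradiated skin of day 7 against baseline had 628 features (2.71%), 200 higher (0.863%) and 428 lower (1.85%), of which 11 are genes named here. None of these 11 passed with the set as a term or with the rat as a fixed block, where 4 and 0 of all features passed. Counts of list members below stand against these shares of all features. With the set as a term the shares against baseline were 2.15% higher and 1.14% lower.

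**Figure D1:**
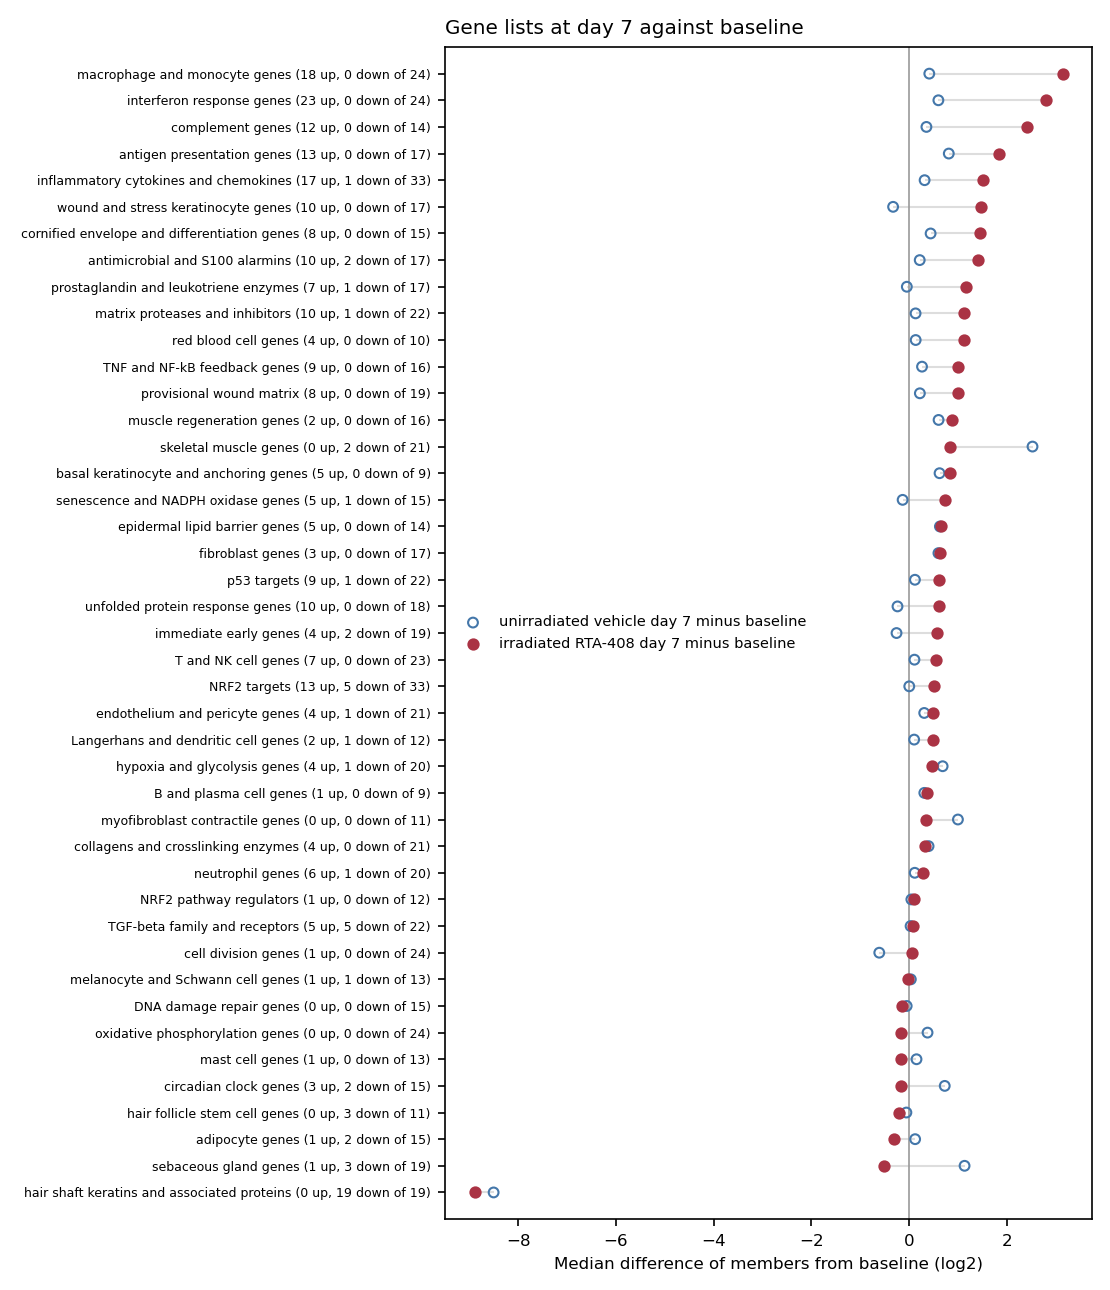
Median log2 difference from baseline of the members of 43 gene lists (horizontal axis), for irradiated RTA-408 skin of day 7 (filled red, 3 arrays) and unirradiated vehicle skin of day 7 (open blue, 2 arrays), both against the same 6 baseline arrays. Numbers in brackets count members that passed higher and lower in the RTA-408 comparison. Macrophage, interferon and complement lists had the highest medians on the measured values (3.14, 2.81 and 2.42 against 0.015 for all features), while the hair shaft list lay at -8.89 in RTA-408 skin and -8.51 in unirradiated skin.

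Of 17 measured genes for antimicrobial peptides and S100 alarmins, 10 rose and 2 fell, with a list median difference of 1.42 against 0.015 for all features, and 8 rose and 0 fell with the set as a term, where 2.15% of all features rose. Gpr15lg, an antimicrobial peptide and ligand of the lymphocyte receptor GPR15, had a baseline median signal of 4.57 (range 3.99 to 5.59) and day 7 signals of 14.09, 14.64 and 13.89. Its difference was at least 8.04 (adjusted p = 1.73e-09), and its unirradiated day 7 signals of 4.41 and 5.04 lay within the baseline range. S100a9, which forms the antimicrobial calprotectin with S100a8, had a baseline median of 7.06 (6.50 to 8.55) and day 7 signals of 14.89, 17.04 and 15.82. All 3 day 7 arrays lay far above all baseline arrays, a difference of 8.66 ± 1.26 (SE, adjusted p = 6.63e-06). S100a8 differed by 7.33 ± 1.12 (adjusted p = 1.35e-05), from a median of 6.96 to signals of 12.78, 15.59 and 13.91. For both calprotectin genes replicate 2 was the highest day 7 array. Defb4, a beta-defensin, rose by at least 4.34, and Reg3g, an antimicrobial lectin that keratinocytes make after wounding, by at least 2.90, with replicate 2 highest and the other arrays at 8.05 and 8.16.

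Among cytokines of the epidermis Il36g, Il36b and Il24 rose and Il1f10 fell. Il36g, an IL-1 family cytokine of stressed keratinocytes, went from a median of 7.29 (6.30 to 9.23) to 13.28, 13.85 and 13.61, a difference of 6.09 ± 0.67 (adjusted p = 1.10e-07). It also passed in unirradiated day 7 skin, by 2.95 (adjusted p = 0.0319), and the irradiated skin was 3.13 above that (adjusted p = 0.0269). Il36b, its close relative, rose by 4.58 ± 0.61. Il24, an IL-10 family cytokine that acts on epithelium, was below the negative controls on every baseline array and at 9.10, 9.94 and 10.69 on day 7, at least 3.74 higher (adjusted p = 1.59e-06). Ereg and Areg, which are ligands of the EGF receptor, rose by 4.10 ± 0.40 and by at least 1.42, and Areg did not pass with the set as a term (adjusted p = 0.0680). Il1f10, the gene of the IL-1 family member IL-38, which restrains inflammation, went the other way, from a median of 9.15 (6.65 to 9.99) to 4.55, 4.96 and 5.09, at least 2.72 lower (adjusted p = 0.000136).

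Kallikrein proteases cut the junctions that hold the cornified layer together. The rule for named genes, which favours large called differences, took 5 of them. That 4 of these rose is therefore no count for the family. Klk6 had a baseline median of 6.84 (5.83 to 8.07) and day 7 signals of 14.20, 14.38 and 15.60, a difference of 7.82 ± 0.73 (adjusted p = 5.56e-09). Klk9, Klk13 and Klk7 rose by 5.66 ± 0.55, 4.93 ± 0.62 and 2.99 ± 0.41, and none of these 4 overlapped baseline. The fifth, Klk10, overlapped baseline and did not pass (1.64 ± 0.61, adjusted p = 0.0649). Stfa3, a stefin that inhibits cysteine proteases, rose by 7.77 ± 0.88 to 18.63, 18.73 and 18.17, among the brightest signals of the arrays. Serpinb2, an inhibitor of plasminogen activators, rose by 4.76 ± 0.51, and in unirradiated skin by 2.11 (adjusted p = 0.0471). Fetub, a protease inhibitor related to fetuin, rose by at least 5.05, and Uox, the gene of urate oxidase, by at least 4.46. Of 17 wound and stress keratinocyte genes, 10 rose and 0 fell against baseline, 5 rose with the set and 7 with the rat as a term. Against unirradiated day 7 skin 14 rose, where 3.56% of all features rose. With the rat as a term 0 did, where only 3 of all 23188 features passed. Members that passed only in the second comparison include Sprr1a, a cornified envelope precursor, and Gjb2, the gap junction protein connexin 26, and the difference between the comparisons was not tested. Gjb2 had signals of 15.07, 15.30 and 15.77 in RTA-408 skin, a baseline median of 15.08 (11.26 to 15.45) and unirradiated signals of 9.97 and 6.44. It did not pass against baseline (0.98 ± 1.27, adjusted p = 0.699) and lay 7.17 above unirradiated skin of the same day (adjusted p = 0.00814), and unirradiated skin lay 6.19 under baseline (adjusted p = 0.0174).

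**Figure D2:**
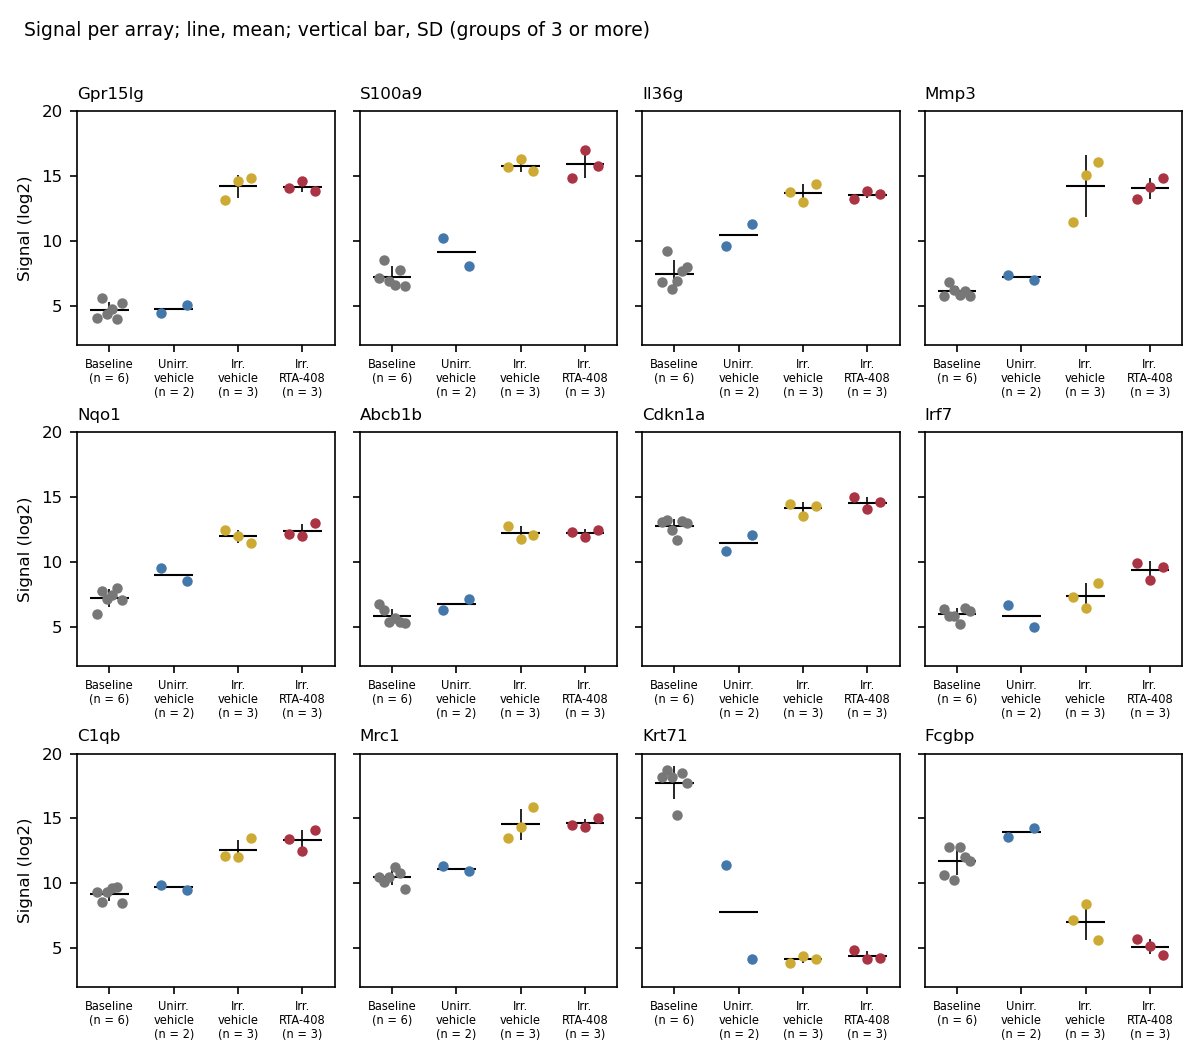
Signal (log2, vertical axis from 2 to 20) of 12 genes on each array of 4 groups. Points are arrays, the line is the mean and the vertical bar the SD where a group has 3 or more arrays. Gpr15lg, Mmp3 and Abcb1b are high in both irradiated groups and low in both unirradiated ones, Irf7 is highest in RTA-408 skin, Krt71 is low on all arrays but those of baseline and unirradiated replicate 1, and Fcgbp is low in irradiated skin.

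Of 22 matrix proteases and inhibitors, 10 rose and 1 fell, 4 rose with the set as a term and 5 rose against unirradiated skin. Mmp3, stromelysin 1, was no brighter at baseline than negative controls (median 6.00, range 5.78 to 6.85) and at 13.23, 14.14 and 14.85 on day 7, at least 7.83 higher (adjusted p = 4.19e-07). Mmp13, a collagenase, rose by at least 1.96, and Mmp9, a gelatinase, by at least 2.68. Mmp12, the elastase of macrophages, rose by at least 4.10, with replicate 2 lowest at 8.87 and the others at 10.85 and 11.09, and did not pass with the set as a term (adjusted p = 0.0714). Mmp2, a gelatinase of fibroblasts, was already bright at baseline with a median of 14.71 and rose by 2.61 ± 0.35 (adjusted p = 2.40e-06). Timp1, which inhibits these enzymes, rose by 3.49 ± 0.72, and not with the set as a term (adjusted p = 0.0934). Cpxm1, a carboxypeptidase-like secreted protein, went from a median of 8.23 (7.21 to 9.28) to 14.60, 14.13 and 16.32, a difference of 6.80 ± 0.89 (adjusted p = 1.53e-06).

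Of 22 members of the TGF-beta family and its receptors, 5 rose and 5 fell against baseline. The set term left 2 higher and 0 lower, and against unirradiated day 7 skin 4 rose and 0 fell. Fst, which binds and blocks activins, rose by 2.85 ± 0.38 (adjusted p = 2.12e-06). Tgfb1, the ligand best known for driving fibrosis, went from a median of 10.11 (9.20 to 10.55) to 12.49, 11.59 and 12.25, a difference of 2.12 ± 0.38 (adjusted p = 0.000120). With the set as a term the difference of Tgfb1 was 1.55 and did not pass (adjusted p = 0.0789). Bmp4, a signal of the follicle and dermis, fell by 2.78 ± 0.68, and not with the set as a term (adjusted p = 0.361). Of 19 genes of the provisional wound matrix, 8 rose and 0 fell, with 2 higher under the set term. Tnc, tenascin C, rose by 3.07 ± 0.66 against baseline and by 5.39 against unirradiated day 7 skin, and the first of these did not pass with the set (adjusted p = 0.0970) or the rat (adjusted p = 0.0820) as a term. Lum, a proteoglycan that binds collagen fibrils, rose by 3.59 ± 0.53. Of 21 collagens and crosslinking enzymes, 4 rose and 0 fell, and 1 rose with the set as a term. The 4 include Loxl4, a lysyl oxidase, by 2.70 ± 0.49 (adjusted p = 0.110 with the set as a term). Col1a1, the main fibrillar collagen of dermis, had a baseline median of 18.79 (18.69 to 19.40) and day 7 signals of 19.03, 18.98 and 18.50, a difference of -0.05 ± 0.25 (adjusted p = 0.931). None of 11 myofibroblast contractile genes passed.

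Of 33 measured NRF2 targets, 13 rose and 5 fell, with a list median difference of 0.51, and 9 rose and 0 fell with the set and 9 rose and 2 fell with the rat as a term. Against unirradiated day 7 skin 11 rose and 0 fell. In irradiated vehicle skin without the drug, 10 rose and 3 fell against baseline, and 5 rose and 0 fell with the set as a term. Nqo1, a quinone reductase and standard reporter of NRF2 activity, had a baseline median of 7.30 (6.02 to 8.02) and day 7 signals of 12.18, 12.00 and 13.01, a difference of 5.15 ± 0.52 (adjusted p = 2.64e-08). Unirradiated skin lay between, at 9.52 and 8.52, and irradiated vehicle skin had a mean of 11.97. Akr1b8, an aldo-keto reductase, went from a median of 6.12 to 11.50, 11.40 and 12.50, at least 5.47 higher (adjusted p = 1.53e-09). Srxn1, which repairs oxidised peroxiredoxins, rose by 1.58 ± 0.36, Gstm1, a glutathione transferase, by 1.41 ± 0.33, and Ephx1, an epoxide hydrolase, by 2.02 ± 0.35. Hmox1, haem oxygenase 1, rose by 2.31 ± 0.49, with adjusted p-values of 0.000907 here, 0.0510 with the set and 0.0558 with the rat as a term. Gpx2, a glutathione peroxidase of epithelia, rose by 1.94 ± 0.43 and passed under neither term (adjusted p = 0.0717 and 0.0663), and Srxn1 did not pass with the rat as a term (adjusted p = 0.0591). Gstm1 did not pass without day 7 replicate 1 (adjusted p = 0.0574).

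The genes for glutathione synthesis were not among those that rose. Gclc, the catalytic subunit of its rate-limiting ligase, had a baseline median of 10.35, a range of 7.83 to 10.89, and day 7 signals of 8.22, 8.20 and 8.09. The groups overlapped because 1 baseline array was low, and the difference was -1.83 ± 0.52 (adjusted p = 0.0119). In unirradiated day 7 skin Gclc was also lower than baseline, by 2.31 (adjusted p = 0.0305), and not with the set (adjusted p = 0.429) or the rat (adjusted p = 0.830) as a term. Gclm, the regulatory subunit, fell by 0.94 ± 0.31 against baseline, and was at -0.19 with the set as a term (adjusted p = 0.879). Gclc did not pass with the set as a term (adjusted p = 0.423) or without day 7 replicate 3 (adjusted p = 0.0535), and Gclm failed without any 1 of the day 7 arrays or of baseline replicates 1, 2 and 5 (adjusted p up to 0.139), as well as with the rat as a term (adjusted p = 0.0886). Txnrd1 (thioredoxin reductase) and Aldh3a1 (an aldehyde dehydrogenase) differed by -0.83 ± 0.36 and 0.67 ± 0.62 and did not pass (adjusted p = 0.127 and 0.557). Nfe2l2, which encodes NRF2 itself, rose from a median of 10.88 (10.57 to 11.23) to 12.36, 12.21 and 12.32, by 1.40 ± 0.18 (adjusted p = 1.13e-06). Of 12 regulators of the pathway only Nfe2l2 passed, where 15.8% of all features did.

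Abcb1b, one of the rodent genes for the drug efflux pump P-glycoprotein, had the smallest p-value of the comparison. Its baseline median was 5.55 (5.32 to 6.77), its unirradiated signals were 6.33 and 7.15, and its day 7 signals were 12.33, 11.93 and 12.46. The difference was 6.43 ± 0.34 on the measured values and at least 5.94 above the negative control level, with an adjusted p of 4.21e-15 (1.79e-09 with the set and 2.01e-08 with the rat as a term). Irradiated vehicle skin had a mean of 12.23.

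Of 22 measured p53 targets 9 rose, 1 fell and 12 did not pass, with a median difference of 0.62, and 4 rose with the set as a term. Mdm2, the ligase that p53 induces to limit itself, went from a median of 10.68 (10.37 to 11.21) to 12.62, 12.91 and 12.80, a difference of 2.05 ± 0.25 (adjusted p = 5.78e-07). Phlda3, an inhibitor of AKT, rose by 1.24 ± 0.17 (adjusted p = 1.99e-06). Cdkn1a, the cell cycle inhibitor p21, had a baseline median of 13.04 (11.71 to 13.25) and day 7 signals of 14.99, 14.07 and 14.66. It rose by 1.80 ± 0.38 against baseline (adjusted p = 0.000869) and by 3.10 against unirradiated day 7 skin (adjusted p = 0.000430), and did not pass against baseline with the set as a term (adjusted p = 0.111). Plk2, a kinase induced by damage, rose by 1.24 ± 0.26 and passed with neither the set (adjusted p = 0.122) nor the rat (adjusted p = 0.0903) as a term.

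Of 15 DNA repair genes none passed, with a median difference of -0.14, and 1 of 24 cell division genes did. That one was Rrm2, the ribonucleotide reductase subunit that supplies precursors of DNA, which rose by 1.84 ± 0.48 (adjusted p = 0.00587) and did not pass with the rat as a term (adjusted p = 0.0712). Mki67, the proliferation marker, had a baseline median of 13.27 (11.76 to 13.59), day 7 signals of 12.67, 12.51 and 12.18, and did not pass (adjusted p = 0.741). Its difference was -0.43 ± 0.63, and 1.14 with the set as a term. Among 15 genes of senescence and NADPH oxidases, 5 rose and 1 fell, and 3 rose with the set as a term. Cybb, the oxidase subunit of phagocytes, rose by 4.31 ± 0.59 (adjusted p = 2.92e-06) to 15.27, 14.20 and 14.80, and its partners Ncf4 and Ncf1 by at least 1.65 and by 2.51 ± 0.56. Igfbp3, a binding protein of insulin-like growth factors, fell by 1.73 ± 0.32 (adjusted p = 0.000165). Duox1, an oxidase of epithelium that makes hydrogen peroxide, rose by 2.34 ± 0.39 (adjusted p = 4.19e-05). Ncf1 did not pass with the set as a term (adjusted p = 0.163).

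Nearly the whole interferon response list was higher at day 7. Of 24 measured genes 23 rose and 0 fell, with a median difference of 2.81, against 9.12% of all features that rose. The 14 members at the level of the negative controls at baseline have only bounds, and with these the median was 2.02. With the set as a term 13 rose, against unirradiated day 7 skin 12 rose, and unirradiated skin itself had none that passed against baseline. The list means of the 3 day 7 arrays were 8.64 to 8.91, above all baseline arrays (5.88 to 6.28) and both unirradiated ones (6.10 and 7.33). Isg15, a ubiquitin-like protein, was below the negative controls at baseline and at 8.64, 8.76 and 9.08 on day 7, at least 2.66 higher (adjusted p = 4.19e-07). Mx1, a GTPase that blocks viruses, had day 7 signals of 10.23, 8.98 and 9.48 and rose by at least 3.38. Usp18, which removes Isg15 from proteins and restrains interferon signalling, went from a median of 6.77 (5.73 to 7.67) to 10.99, 10.61 and 10.75, by 3.99 ± 0.46 (adjusted p = 2.48e-07). Irf7, the transcription factor that amplifies interferon production, had a baseline median of 6.03 (5.25 to 6.47), day 7 signals of 9.95, 8.62 and 9.64, and rose by at least 3.10 (adjusted p = 6.69e-05). Cxcl10, a chemokine for T cells, rose by 3.64 ± 0.52 (adjusted p = 4.76e-06), and Rsad2, the antiviral enzyme viperin, by at least 3.40. Unirradiated replicate 1 was higher than replicate 2 for Cxcl10 (8.65 and 5.29), Irf7 (6.65 and 4.97) and Rsad2 (7.20 and 5.28). Rsad2 did not pass with the set as a term (adjusted p = 0.0805). The member that did not pass was Oasl (adjusted p = 0.0501).

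Genes of this response are read through a promoter element, the interferon-stimulated response element, and promoter windows were searched on both strands for GAAA, any 2 bases and GAAA again, from 250 bases before to 50 after the gene start (RefSeq, GRCr8). Of 24 list members 17 had a window, and 12 of these (70.6%) held the letters, against 4.12% of 27457 genes with a window. The windows around the match are shown for 4 members that rose, 5′ to 3′ on the gene's strand, with the match in capitals (a match on the other strand reads TTTC, 2 bases, TTTC). They lie at chr1:205800058-205800117 (minus strand) for Irf7, chr6:48788233-48788292 (minus strand) for Rsad2, chr14:15988816-15988857 (plus strand) for Cxcl10 and chr1:241527257-241527316 (plus strand) for Ifit3.
Irf7: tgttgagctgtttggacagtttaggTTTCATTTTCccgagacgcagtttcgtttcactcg
Rsad2: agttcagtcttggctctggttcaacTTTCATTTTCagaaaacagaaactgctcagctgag
Cxcl10: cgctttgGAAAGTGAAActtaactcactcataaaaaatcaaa
Ifit3: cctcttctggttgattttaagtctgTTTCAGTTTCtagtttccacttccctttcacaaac
Relative to the gene start the match began at -69 in Irf7, -147 in Rsad2, -243 in Cxcl10 and -44 in Ifit3. In the antigen presentation list 7 of 15 windows held the letters (46.7%), and in the macrophage list 2 of 17 did (11.8%). In the list of cytokines and chemokines 1 of 24 did (4.17%). The NRF2, complement and hair shaft lists had 0 of 28, 0 of 10 and 0 of 16. A match is a run of letters and does not show that a factor was bound there. The interferon list was drawn up from interferon response genes, and 16 of its 17 members with a window rose. Its share of matches therefore cannot tell genes that rose at day 7 from those that did not.

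Antigen presentation genes rose too, 13 of 17 higher and 0 lower, with a median difference of 1.84. With the set as a term 4 rose, and 4 rose against unirradiated skin. RT1-DMa, which loads peptides onto class II molecules, went from a median of 7.83 (7.18 to 8.37) to signals between 10.47 and 12.09, a difference of 3.43 ± 0.42 (adjusted p = 5.42e-07). RT1-Da, a class II chain, rose by 3.27 ± 0.52 from a median of 11.38, and RT1-DMb by 3.24 ± 0.46. For all 3 class II genes replicate 1 was the highest and replicate 2 the lowest day 7 array. Cd74, the class II invariant chain, rose by 2.63 ± 0.48 and did not pass with the set as a term (adjusted p = 0.0652).

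Chemokines and complement rose with markers of myeloid cells. Of 33 cytokines and chemokines 17 rose and 1 fell, and 10 rose with the set as a term. Ccl7, a monocyte attractant, went from a median of 7.15 (6.93 to 8.66) to 11.69, 12.20 and 12.25, by 4.65 ± 0.68 (adjusted p = 6.63e-06). Ccl2, its neighbour in function, rose by 4.00 ± 0.78, to 13.60, 14.04 and 14.14. Ccl20, which draws dendritic cells and T cells to epithelium, rose by 3.60 ± 0.54. Il1b rose by at least 1.56, with replicate 2 lowest at 6.10, and Il6 by at least 0.47. Neither of these 2 cytokines passed with the set as a term (adjusted p = 0.176 and 0.252), and Il6 did not pass with the rat as a term (adjusted p = 0.0869). Without day 7 replicate 3 neither Il1b nor Il6 passed (adjusted p = 0.0578 and 0.119). Icam1, the adhesion molecule that halts leukocytes on vessels, rose by 2.33 ± 0.32 (adjusted p = 2.34e-06).

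Of 14 complement genes 12 rose and 0 fell, with a median difference of 2.42 (2.37 with members at their bounds), and 9 rose both with the set as a term and against unirradiated skin. C1qb, a chain of the first component, made mostly by macrophages, went from a median of 9.30 (8.49 to 9.73) to 13.39, 12.51 and 14.10, by 4.18 ± 0.68 (adjusted p = 3.15e-05). C1qc and C1qa rose by 3.27 ± 0.56 and 2.89 ± 0.46, and the proteases C1s and C1r, made by stromal cells, by 2.84 ± 0.36 and 2.59 ± 0.36. C3, the hub of the cascade, did not pass (0.90 ± 0.49, adjusted p = 0.245).

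Macrophage and monocyte genes rose in 18 of 24 cases and fell in none, with a median difference of 3.14 (2.65 with members at their bounds), 11 higher with the set as a term and 15 against unirradiated skin. Cd163, a scavenger receptor for haemoglobin complexes, had a baseline median of 8.24 (7.58 to 8.69) and day 7 signals of 13.24, 12.92 and 13.92, a difference of 5.17 ± 0.85 (adjusted p = 4.07e-05). Mrc1, the mannose receptor, rose by 4.18 ± 0.64 to 14.48, 14.33 and 15.02. Mpeg1, a pore protein of macrophages, Fcgr1a, a high-affinity antibody receptor, and Clec10a, a lectin, rose by 4.43 ± 0.58, 4.42 ± 0.64 and 3.94 ± 0.49. Arg1, arginase of the wound macrophage, did not pass (-0.90 ± 0.77, adjusted p = 0.512). In bulk tissue more cells of a type and more RNA per cell cannot be told apart. Of 10 red blood cell genes 4 rose, and 2 with the rat as a term, with list means of 9.13 to 10.30 on day 7 against 7.81 to 8.93 at baseline and 8.31 and 8.45 in unirradiated skin. Hbb, the haemoglobin beta chain, rose by 2.16 ± 0.60 (adjusted p = 0.0106, and 0.0705 without day 7 replicate 1), none of the 4 passed with the set as a term (adjusted p = 0.388 for Hbb), and the part of blood in the leukocyte genes was not tested.

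At baseline 16 of 20 neutrophil genes and 19 of 23 T and NK cell genes were no brighter than negative controls, against 10 of 24 macrophage genes, so these lists hold mostly bounds. Of the 20 neutrophil genes 6 rose and 1 fell, and 3 rose and 0 fell with the set as a term. These 3 were S100a8, S100a9 and Mmp9 (limma, adjusted p = 0.00756, 0.0041 and 0.0183). All 3 are named above among alarmins and matrix proteases, so they are not separate evidence for neutrophils. Csf3r, the receptor of the neutrophil growth factor, rose by at least 1.39 to 6.96, 7.21 and 8.51, and Cxcr2, the receptor for neutrophil chemokines, by at least 1.28 to 7.58, 7.59 and 7.19, while both failed the test with the set as a term (adjusted p = 0.220 and 0.0615). Padi4, a neutrophil-listed enzyme that converts arginine to citrulline, fell by at least 2.13, and it fell in unirradiated skin as well, by at least 1.85 (adjusted p = 0.0371). With the set as a term Padi4 passed in neither (adjusted p = 0.120 and 0.415). Of the 23 T and NK cell genes 7 rose and 0 fell, 1 rose with the set and 4 with the rat as a term, and 1 rose against unirradiated skin. Of all features 9.12% rose, 2.15% with the set and 5.99% with the rat as a term, and 3.56% against unirradiated skin. Klrk1, the activating receptor NKG2D, rose by at least 3.23 (adjusted p = 4.39e-07) to 10.22, 8.61 and 9.76. Cd4 rose by 3.33 ± 0.75 and Cd8a by at least 1.82, with Cd8a at 9.62 in replicate 3 and 7.39 and 6.97 in the others, and neither passed with the set as a term (adjusted p = 0.0592 and 0.457). Cd8a did not pass with the rat as a term (adjusted p = 0.154) or without day 7 replicate 3 (adjusted p = 0.178). Cd4 is found on rat macrophages as well as T cells. Lyve1, a receptor of lymphatic vessels and some macrophages, was 1 of 4 genes that rose among 21 of endothelium and pericytes, by 2.74 ± 0.50. Of these 21 genes 1 fell, and with the set as a term 1 rose and 0 fell.

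**Figure D3:**
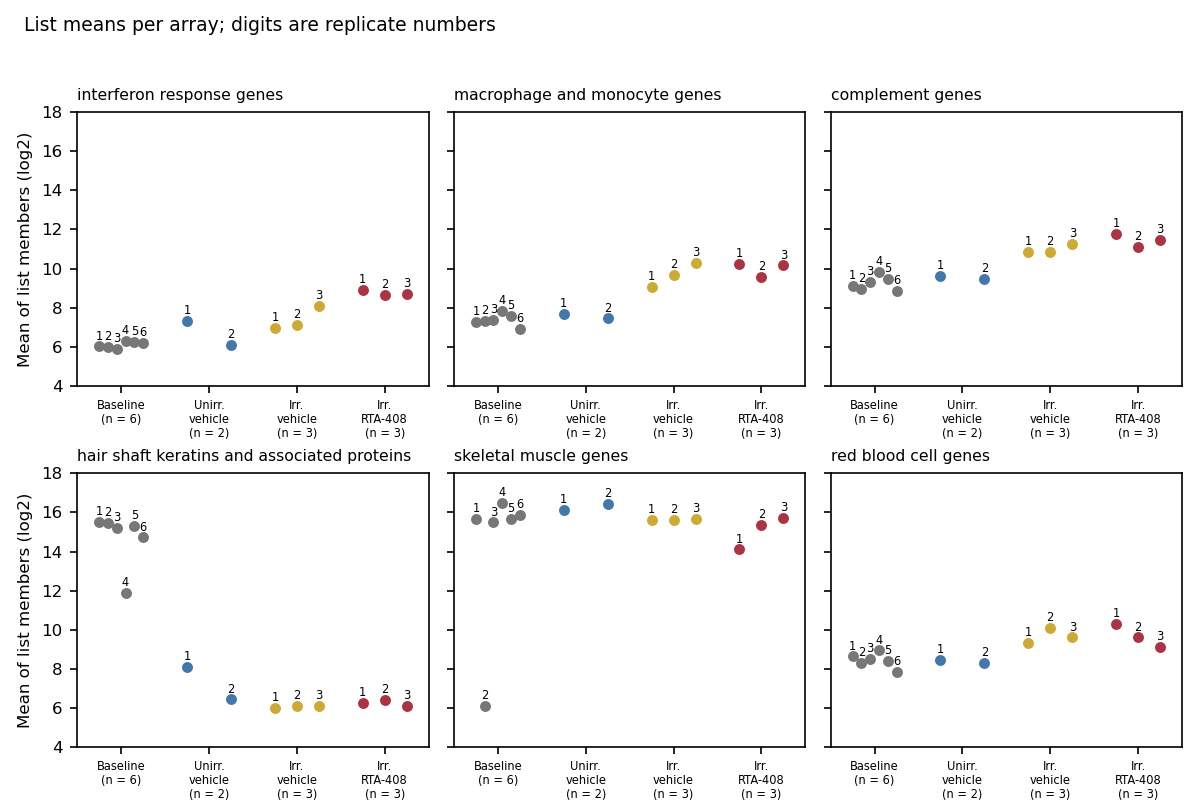
Mean log2 signal of the members of 6 lists on each array (vertical axis, 4 to 18) in 4 groups, with replicate numbers above the points. Interferon, macrophage and complement means of the 3 RTA-408 arrays lie above all baseline arrays, hair shaft means lie at 6.09 to 6.40 against 11.87 to 15.51 at baseline, and baseline replicate 2 stands apart at 6.11 for skeletal muscle.

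Of 17 genes of prostaglandin and leukotriene synthesis 7 rose and 1 fell, with 5 higher under the set term. Ptgs2, the inducible cyclooxygenase, had a baseline median of 6.74 (6.47 to 7.94), unirradiated signals of 6.83 and 5.38 and day 7 signals of 11.56, 11.43 and 12.61, a difference of 4.97 ± 0.77 (adjusted p = 1.73e-05). Hpgd, which inactivates prostaglandins, rose as well, by 2.93 ± 0.34 (adjusted p = 2.48e-07), and Hpgds, which makes prostaglandin D2, by 2.99 ± 0.47. Alox5 and its activating partner Alox5ap, which open leukotriene synthesis, rose by 2.41 ± 0.29 and 2.96 ± 0.43. Alox12e, an epidermal lipoxygenase outside the list, fell from a median of 7.59 (5.05 to 9.19) to 3.24, 3.11 and 3.16, by at least 1.15, and against unirradiated skin it was at least 2.54 lower (adjusted p = 0.000287).

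In the lists of basal and anchoring genes and of cornified envelope genes members rose and none fell. Krt14 rose by 2.18 ± 0.24 (adjusted p = 1.44e-07), from a median of 16.59 to 18.77, 18.70 and 18.87. Itgb4 and Itga6, the integrin pair of the hemidesmosome, rose by 2.27 ± 0.28 and 1.25 ± 0.20, and in all, 5 of 9 basal and anchoring genes rose and 0 fell, with 3 higher under the set term. Tp63, the transcription factor of stratified epithelium, and Krt15 lay 0.96 and 1.27 below baseline and did not pass (adjusted p = 0.107 and 0.257). Of 15 cornified envelope and differentiation genes 8 rose and 0 fell, while 2 rose with the set and 3 rose and 1 fell with the rat as a term. Krt1, the keratin of the spinous layer, had day 7 signals of 18.92, 18.94 and 18.21, a baseline median of 16.97 and unirradiated signals of 18.56 and 18.80. Its difference against baseline was 1.80 ± 0.45 (adjusted p = 0.00408), it lay 0.01 from unirradiated skin (adjusted p = 0.995), and it passed with neither the set (adjusted p = 0.124) nor the rat (adjusted p = 0.0599) as a term. Tgm1, the crosslinking enzyme of the envelope, rose by 1.61 ± 0.42 against baseline and by 2.31 against unirradiated skin, the first of which did not pass with the set (adjusted p = 0.128) or the rat (adjusted p = 0.255) as a term or without day 7 replicate 3 (adjusted p = 0.0513). Of 18 genes of the unfolded protein response 10 rose and 0 fell, while 1 rose with the set and 3 with the rat as a term. Asns, asparagine synthetase, rose by 1.78 ± 0.26 (adjusted p = 7.36e-06). Of 20 hypoxia and glycolysis genes 4 rose and 1 fell, and 2 rose and 0 fell with the set as a term. Eno1, a glycolytic enzyme, was higher by 1.34 ± 0.22 (adjusted p = 4.15e-05).

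All 19 measured genes of the hair shaft list fell, with a median difference of -8.89 (-8.03 with members at their bounds), where 6.67% of all features fell. The list is wider than its name. It also holds keratins of the root sheath, such as Krt71 and Krt25, and names regulators of the follicle, such as Hoxc13. Krtap7-1, a keratin-associated protein of the hair shaft that the list did not hold, had a baseline median of 19.52 (17.51 to 19.61) and day 7 signals of 4.60, 5.63 and 5.16, at least 13.25 lower (adjusted p = 1.18e-05). Krt71, a keratin of the inner root sheath, went from a median of 18.19 to 4.80, 4.15 and 4.24, at least 11.86 lower. Krt86 and Krt35, keratins of the hair shaft, were at least 12.00 and 9.49 lower, Krtap1-5 was 11.71 ± 1.41 lower, and Dsg4, a desmoglein of the hair shaft that the list did not hold either, at least 8.55. No baseline array overlapped day 7 for any of these 6 genes. Unirradiated skin of day 7 had low signals as well: 15 of the 19 fell there against baseline, where 1.85% of all features fell, with a median difference of -8.51. None of the 15 calls held with the set or with the rat as a term, where 4 and 0 of all 23188 features passed. Between irradiated RTA-408 and unirradiated skin 0 of the 19 passed. For Krt71 the 2 unirradiated arrays differed, at 11.39 and 4.11. With the set as a term 5 of the 19 fell (1.14% of all features), with a median difference of -5.57, and Krtap7-1, Krt71, Krt35 and Dsg4 did not pass (adjusted p = 0.0641, 0.254, 0.0629 and 0.0505). Radiation and the time since baseline cannot be told apart for these genes in the comparison with baseline.

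Of 11 follicle stem cell genes 3 fell, 1 of them with the set and 2 with the rat as a term. Lgr5, a receptor that marks cycling follicle stem cells, went from a median of 10.62 (9.60 to 11.55) to 5.69, 6.18 and 4.82, at least 4.63 lower (adjusted p = 0.000196), with unirradiated signals of 8.51 and 7.33 between the groups. Lhx2, a transcription factor of these cells, fell by 3.31 ± 0.78, and Foxc1, which keeps them quiescent, by 1.33 ± 0.23. Lgr5 and Lhx2 did not pass with the set as a term (adjusted p = 0.203 and 0.0916), and Lhx2 did not with the rat (adjusted p = 0.0563).

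**Figure D4:**
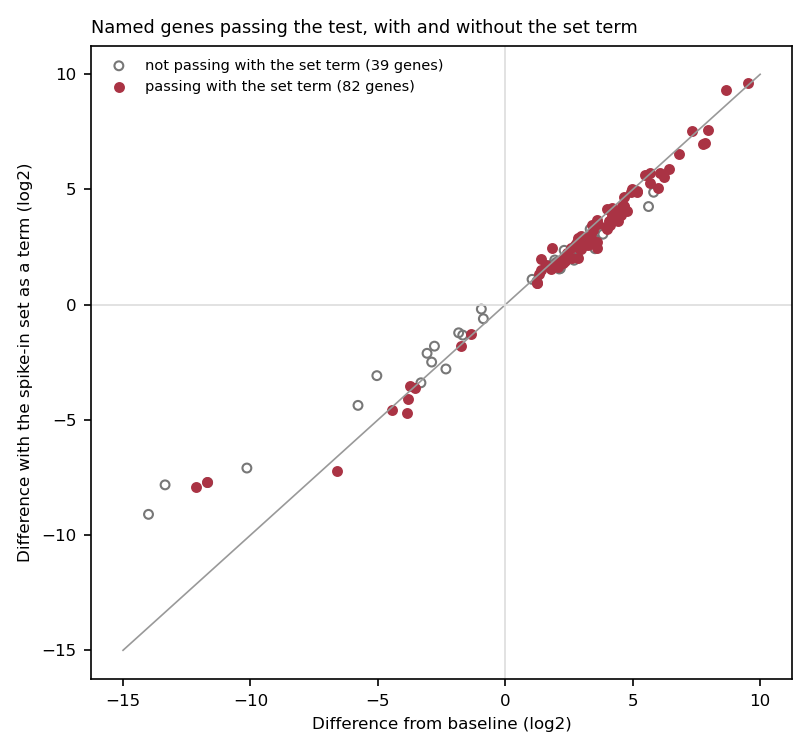
Difference from baseline of the named genes that passed the test (horizontal axis, log2) against the same difference fitted with the spike-in set as a term (vertical axis, log2); the line marks equal values and filled points passed in both fits. The genes that rose lie near the line, and the hair shaft and root sheath genes at the lower left lie above it, with smaller falls under the set term.

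Several further genes were lower in irradiated RTA-408 skin than at baseline, and some of them also lower than in unirradiated skin of the same day. Fcgbp, a mucin-like protein that binds antibody Fc, had a baseline median of 11.85 (10.26 to 12.82), unirradiated signals of 13.59 and 14.22 and day 7 signals of 5.69, 5.13 and 4.48. It was at least 5.81 lower than baseline (adjusted p = 3.78e-05) and at least 8.02 lower than unirradiated skin (adjusted p = 0.000430). Wfdc21, a whey acidic protein family member, and Apoc1, an apolipoprotein, fell by 4.44 ± 0.83 and 3.81 ± 0.86 against baseline, and lay 6.28 and 5.95 under unirradiated skin. Dapl1, an epithelial gene of differentiating cells, fell by 3.54 ± 0.68, to 8.19, 8.23 and 7.95. Adh6a, an alcohol dehydrogenase, fell by at least 2.46 and did not pass with the set as a term (adjusted p = 0.0805). Car6, a secreted carbonic anhydrase, fell by 5.78 ± 1.08 against baseline and did not pass against unirradiated skin (-1.71, adjusted p = 0.557) or with the set as a term (adjusted p = 0.116).

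Of 19 sebaceous gland genes 3 fell and 1 rose, a share near the 15.8% of all features that passed, with a median difference of -0.51. Against unirradiated skin 4 of the 19 fell, with a median of -1.53, where 1.57% of all features fell. With the rat as a term 0 did, and 0 of all features fell there. Mc5r, the melanocortin receptor of sebocytes, fell by 1.67 ± 0.51 against baseline and by 3.45 against unirradiated skin (adjusted p = 0.00231). Fasn, fatty acid synthase, fell by 2.33 ± 0.70. With the set as a term 0 of the 19 passed in either direction, and Mc5r and Fasn did not pass with the rat as a term (adjusted p = 0.0699 and 0.359). Neither passed without day 7 replicate 1 or replicate 3, and Fasn did not without baseline replicate 3 (adjusted p up to 0.178 for Mc5r and 0.111 for Fasn). Of 21 skeletal muscle genes 0 rose and 2 fell, where 6.67% of all features fell, and neither of the 2 passed with the set or the rat as a term. Day 7 list means were 14.11, 15.37 and 15.71, with replicate 1 lowest. Mb, myoglobin, had a baseline range of 4.84 to 15.69, and its difference of 2.93 ± 1.77 did not pass (adjusted p = 0.312). Of 16 muscle regeneration genes 2 rose, where 9.12% of all features rose, 0 with the set (2.15% of all features) and 5 with the rat as a term (5.99%). One was Chrna1, a subunit of the muscle acetylcholine receptor, which had day 7 signals of 15.42, 6.02 and 11.53 and a baseline range of 3.97 to 6.86. It passed the test (adjusted p = 0.000920) although the groups overlapped, and it did not pass without replicate 1 (adjusted p = 0.0580) or with the set as a term (adjusted p = 0.128). None of 24 oxidative phosphorylation genes passed.

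Irradiated vehicle skin of day 7 served to ask what the drug added. No feature passed between irradiated RTA-408 and irradiated vehicle skin (limma, smallest adjusted p = 0.403, with 613 at an unadjusted p under 0.05), and 2 passed when day 7 replicate 2 was left out, namely Chrnd, a subunit of the muscle acetylcholine receptor, 5.31 higher (adjusted p = 0.0184), and a feature without a symbol. Both were named after their values were seen. Against the shared 6 baseline arrays, irradiated vehicle skin had 1836 features higher (7.92%) and 1406 lower (6.06%). Interferon genes were among those with the smallest unadjusted p between the irradiated groups, and none passed. Ifit1, which binds viral RNA after interferon, had signals of 6.64, 7.88 and 6.92 with RTA-408 and was no brighter than negative controls with vehicle, at least 1.15 apart. Mx1, Isg15, Usp18 and Irf7 lay 2.48, 2.23, 2.14 and 2.01 above vehicle skin, and the list median of this difference was 1.44 over 24 genes, or 1.15 with members at their bounds. Against baseline, 11 interferon genes passed in vehicle skin and 23 in RTA-408 skin (1 and 13 with the set, 2 and 20 with the rat as a term), and that contrast was tested only gene by gene through the difference above. The interferon list means of the vehicle arrays were 6.97, 7.12 and 8.09, against 8.64 to 8.91 with RTA-408. In the same order, counts were 13 and 13 for antigen presentation genes and 16 and 18 for macrophage genes. With the set as a term these were 1 and 4, and 7 and 11. Gzmk, a granzyme of T cells, was at least 0.50 higher with RTA-408 and Cdk5rap1, which modifies mitochondrial transfer RNA, 0.93 lower, without passing. For NRF2 targets the list median between the irradiated groups was 0.10, and Nqo1 differed by 0.42.

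Within the RTA-408 arm, days 3, 7 and 14 came from the same 3 rats and the same spike-in sets. From day 3 to day 7, 127 features rose (0.548%) and 44 fell (0.190%), 0.737% in all, and from day 7 to day 14, 82 rose (0.354%) and 133 fell (0.574%). The first count of 171 was 64 and 45 without day 7 replicates 1 and 3, and 34 and 59 without day 3 replicates 1 and 2. The second count of 215 was 92, 141 and 6 without day 7 replicates 1, 2 and 3, and 35, 68 and 63 without day 14 replicates 1, 2 and 3. From day 3 to day 7, 10 of 24 interferon genes and 5 of 17 antigen presentation genes rose and none fell. Mx1 rose by at least 3.42 (adjusted p = 0.00564), Irf7 by at least 2.95 (adjusted p = 0.00859) and RT1-Da by 3.39 (adjusted p = 0.00246). To day 14, 4 interferon genes and 0 antigen presentation genes fell, a contrast that was not tested, with RT1-Da at -0.33 (adjusted p = 0.890). Klk6 rose by 4.81 and fell again by 6.24, and Mmp3 fell by 5.08 to day 14.

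NRF2 and p53 targets of the arm were also followed by day. Nqo1 had arm means of 13.04 on day -4 and 14.57 on day 1, against 12.40 on day 7 and 10.90 on day 14, and the step from day 7 to day 14 did not pass (adjusted p = 0.252). Ephx1 was 1.92 lower on day 7 than on day 3 (adjusted p = 0.0126). Abcb1b fell by 1.69 and Mdm2 by 1.15 from day 7 to day 14 (adjusted p = 0.0297 and 0.0442, and 0.0624 for Mdm2 with the rat as a term), with differences from day 3 to day 7 of -1.48 and -0.64 that did not pass. Fcgbp fell by at least 4.82 and Wfdc21 by 6.64 from day 3 to day 7. Il1f10 fell by at least 2.85 to day 7 and rose by at least 2.92 to day 14.

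**Figure D5:**
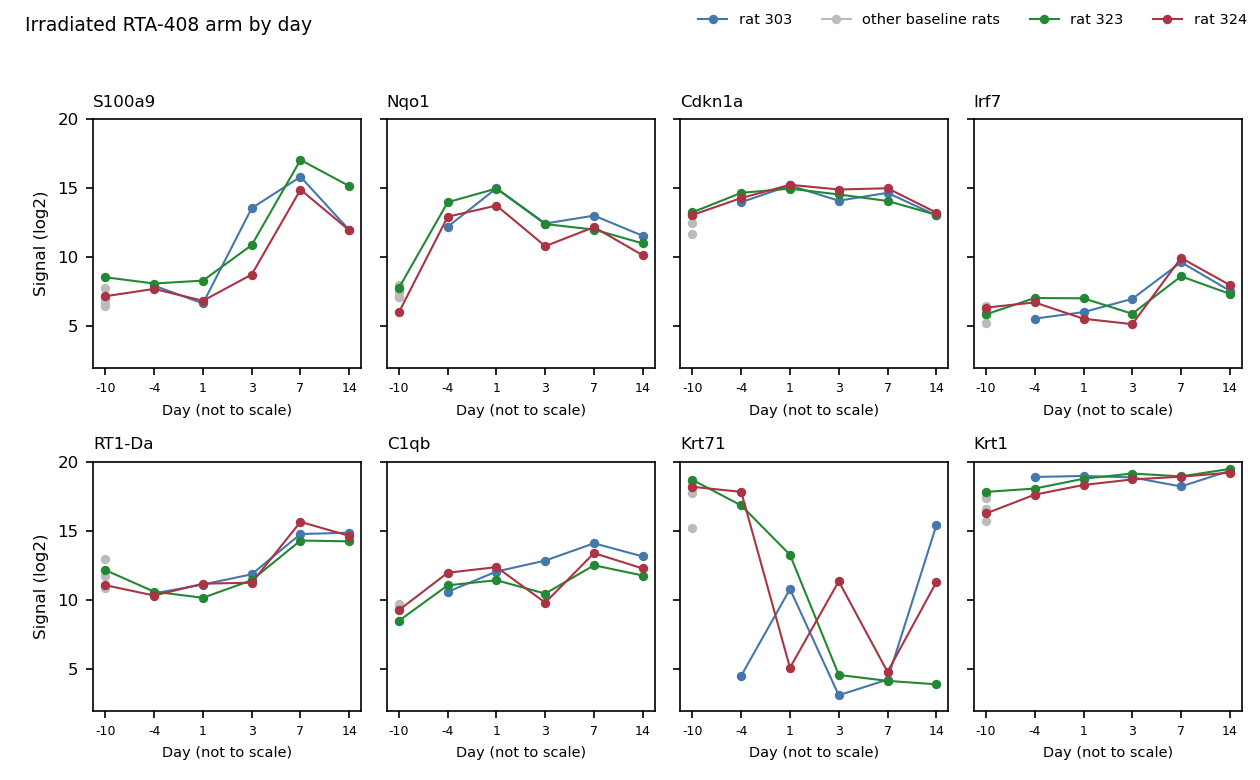
Signal (log2, vertical axis) of 8 genes by day in the irradiated RTA-408 arm, with 1 line per rat and the baseline arrays of other rats in grey; days are spaced evenly and not to scale. S100a9, Irf7 and C1qb are highest on day 7 in most rats, RT1-Da stays up on day 14, Nqo1 is highest on day 1, and Krt71 is low in all 3 rats on day 7 and up again in rats 324 and 303 on day 14.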

How the data were processed

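RNA of 46 skin punches was hybridised to rat Clariom S arrays, with 100 ng of RNA per array per the labels' protocols. The values are the log2 signals that the authors deposited, and how they were normalised is not stated by any label or header used here. The table held 24834 features, of which 1646 controls were left out, and 15049 of the remaining 23188 had 1 gene symbol in the platform annotation and 8139 had none. With no normalisation added, limma 3.58.1 in R 4.3.3 fitted 1 mean for each of 16 groups (30 residual degrees of freedom), and p-values were adjusted by the method of Benjamini and Hochberg over all 23188 features. The number of arrays limits the precision.

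Alternatives were quantile normalisation, leaving out the dimmest 25% of features, array weights, an intensity trend with a robust prior, the rat as a random or a fixed block, the number in the label as a block, the spike-in set as a term, the compared groups alone, and leaving out each array. The days within the RTA-408 arm and leaving out baseline replicates 2 and 4 together were added after seeing the data. Rats 324 and 323 were in both groups, so the same rat pairs these arrays by the labels, and the deviations of a rat's 2 arrays from their group means correlated at r = -0.0701 and -0.1094 across features. Before use, the fit was checked on simulated data with known shifts and independent normal noise. Those data held no rat effect and no spike-in set effect, so the check covers neither.

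Gene lists and comparisons were chosen with earlier results of these data known. The rule for named genes took the 15 highest and 15 lowest called differences without overlap, up to 6 called and 3 other members of each of the 43 lists, the 5 highest and lowest of the other comparisons (3 where none was called) and a fixed panel, of which Krt6a and Krt16 were not analysed here, and the text names genes from these. For a gene with several features the brightest stands. Promoter windows are from RefSeq (GRCr8).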

Additional observations from a re-analysis of the deposited data

Results flagged for a closer look

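In 18 of 134 named genes 1 of the 6 baseline arrays lay far from the other 5, and the rule flags about 1 in 20 groups of independent, normal values. Genes can share the array that stood apart, so the 18 are not separate cases. Krt71 and the hair shaft list mean, for example, were both lowest on baseline replicate 4. The array that stood apart was the highest for Ereg (8.66), Mmp2 (16.33), Lum (13.51), Ifit1 (5.44), Ccl7 (8.66), C1s (13.01), C1r (12.20), Ptgs2 (7.94) and Alox5ap (9.20), as log2 signals. It was the lowest for Gclc (7.83), Ccl20 (6.68), Gjb2 (11.26), Krtap7-1 (17.51), Krt71 (15.24), Krt86 (15.90), Krt35 (11.76), Dsg4 (10.65) and Mb (4.84). Among 43 list means the same held for collagens and crosslinking enzymes (11.63, highest), provisional wound matrix (11.28, highest), hair shaft keratins and associated proteins (11.87, lowest), skeletal muscle genes (6.11, lowest) and unfolded protein response genes (11.29, lowest).

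Within the RTA-408 arm the named genes below differed between neighbouring days by limma's test of that difference, given as log2 differences on the measured values. From day 3 to day 7 they were S100a8 (5.14), Il24 (3.63), Klk6 (4.81), Klk9 (3.09), Klk13 (5.26), Defb4 (3.93), Ereg (2.04), Fetub (3.19) and Cpxm1 (4.64). The same step changed Ephx1 (-1.92), Ncf4 (2.52), Duox1 (1.94), Mx1 (4.67), Isg15 (3.46), Usp18 (3.28), Cxcl10 (3.01), Irf7 (3.38) and Ifit1 (2.87). Further genes of that step were RT1-DMa (2.95), RT1-Da (3.39), RT1-DMb (2.62), Cd74 (3.17), Mpeg1 (2.85), Klrk1 (3.08), Fcgbp (-5.61), Wfdc21 (-6.64), Il1f10 (-3.87) and Adh6a (-3.33). From day 7 to day 14 they were Il24 (-4.91), Klk6 (-6.24), Klk10 (-4.0), Defb4 (-3.75), Areg (-3.45), Mmp3 (-5.08), Cpxm1 (-5.39), Fst (-2.24) and Loxl4 (-2.31). Also changed in this step were Abcb1b (-1.69), Akr1b8 (-2.30), Gpx2 (-2.47), Mdm2 (-1.15), Phlda3 (-0.95), Plk2 (-1.49), Duox1 (-2.52) and Isg15 (-2.57). The remaining ones were Rsad2 (-3.23), Ifit1 (-2.45), Ccl7 (-3.39), Ptgs2 (-4.0), Itgb4 (-1.28), Sprr1a (-3.29), Il1f10 (3.94), Car6 (5.16), Dapl1 (3.65) and Asns (-1.54). Of these, Ncf4, Mx1, Isg15, Irf7, Ifit1, Fcgbp, Il1f10 and Adh6a in the first step and Il24, Areg, Ifit1 and Il1f10 in the second were no brighter than negative controls on 1 of the days, so their measured differences run below background. None of these patterns was tested for a cause.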

How the results depend on the processing

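Of 121 named genes that passed against baseline, 121 kept the call with quantile normalisation, weights per array, an intensity trend and a random rat block, and 82 kept it with the spike-in set as a term. With the rat as a fixed block 106 kept it, and the number of features was 2524 against 3661 (3500 with the label number as a block), while Cd8a, Tgm1 and Mc5r lost the call with the label number. Many of the named genes were taken for large called differences, so these counts do not speak for all features. Of all 3661 features that passed, 20.2% kept the call with the set as a term and 60.8% with the rat as a fixed block. The number of features against baseline was 763 with the set as a term and 2478 to 3965 with 1 array left out. Against unirradiated skin, 1189 became 2069 with array weights, 3 with the rat as a fixed block (Gpr15lg, Abcb1b and Fcrl2, the last named after its values were seen), and 109 to 980 with 1 array left out. Against irradiated vehicle skin, 0 to 2 passed with 1 array left out. For irradiated vehicle skin against baseline, 3242 became 1098 with the rat as a fixed block, 518 with the set, and 1831 to 3568 with 1 array left out, the lowest without vehicle replicate 3. For unirradiated skin against baseline, 628 became 1373 with array weights, 1380 with the label number as a block, 0 with the rat as a fixed block, 4 with the set (Lix1, Sbk2, Krt9 and a feature without a symbol, named after their values were seen) and 107 for the groups alone, and lay between 57 and 1346 with 1 array left out, at 326, 372, 1346, 138 and 57 without baseline replicates 1, 3 and 4 and unirradiated replicates 1 and 2. From day 3 to day 7, 171 became 532 with array weights, 277 for the groups alone and 34 to 231 with 1 array left out. From day 7 to day 14, 215 became 895, 587 and 6 to 141 in the same order. The difference of Col1a1, which did not pass, changed sign to 0.07 with the rat and 0.11 with the label number as a block, 0.05 without baseline replicate 4 or replicates 2 and 4, and 0.12 without day 7 replicate 3 (-0.15 without replicate 1), and that of Mki67 to 1.14 with the set as a term. The cause of these shifts was not tested.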
